A study of Homo sapiens with 6 samples.

Results

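The FGF, HGF and PDGF axis was examined as 10 genes chosen by name, 7 ligands and 3 receptors, and all 10 were found among the 25368 gene symbols of each of 2 FPKM tables. FPKM are fragments scaled to transcript length and to the size of the library, so levels can be compared between genes within a library. The ligands were FGF1, FGF2, FGF5, FGF7, HGF, PDGFA and PDGFC, and the receptors were FGFR1, PDGFRA and PDGFRB. All libraries came from MRC5, a single line of human embryonic lung fibroblasts that had been immortalized with hTERT. In the first table, cells had received adenovirus with an empty vector (control), with FLAG-tagged JUN WT, or with JUN AA, in which alanine replaces the serines that JNK phosphorylates. In the second table, untreated MRC5 stood beside induced CAFs (iCAFs), which had spent 7 days in conditional medium of the breast cancer line MDA-MB-231, and beside iCAFs exposed to a JNK inhibitor (JNKi) at 1 µM for 48 hours. The label protocol names DMSO as the vehicle of the iCAFs. The cancer cell medium was collected without serum, and the MRC5 label gives the treatment as none. Medium, serum and vehicle may thus all differ between MRC5 and either iCAF library and cannot be told apart here. Each condition had 1 library. Differences therefore have no replicate check, no p-value is given, and a difference below describes 2 libraries. The tables were compared only within themselves.

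Fibroblasts are a main source of growth factors that act on neighbouring epithelium and on each other. FGFs bind receptor tyrosine kinases of the FGFR family together with heparan sulfate, HGF binds MET, and PDGF dimers bind PDGFRA and PDGFRB, which are widely used as markers of fibroblasts and perivascular cells. All of these receptors feed into the RAS and ERK cascade, which induces feedback genes such as the Sprouty and dual specificity phosphatase genes. FGF7 and HGF are classical paracrine factors, made by mesenchymal cells and read by epithelial cells. FGF2 acts on many cell types, and FGF1 binds all FGF receptors.

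The summed FPKM of a library lay between 494603 and 613184 in the JUN table and between 359944 and 399532 in the JNKi table. Filtering for a mean of at least 1 FPKM over the 3 libraries left 10311 and 11780 genes to compare. Read totals are unknown, and no common step in the low values of the JUN table gave a relative depth. In the JNKi table the most common ratio of low values between libraries lay between 0.940 and 0.993. JUN was at 25.5 FPKM in control cells, compared with 4543 FPKM for JUN WT and 291 FPKM for JUN AA, so the amount of JUN mRNA and the JNK sites differ together between JUN WT and JUN AA and cannot be told apart. In the JNKi table JUN was at 57.1, 55.3 and 21.1 FPKM across MRC5, iCAFs and iCAFs+JNKi. With JNKi it was thus 2.63-fold lower than in iCAFs. Of 10 fibroblast markers, 9 or 10 were at 1 FPKM or more in every library. CDH1 of epithelium, CDH5 of endothelium and CD3E of T cells were listed at 0 in all libraries, while PTPRC of leukocytes did not exceed 0.0148 FPKM. Other genes of these marker lists were present. The epithelial keratin genes KRT18 and KRT8 lay between 9.87 and 36.7 FPKM and between 5.80 and 19.3 FPKM. CD68 of the leukocyte list lay between 31.1 and 85.7 FPKM. LYZ of that list reached 2.03 FPKM in JUN AA, and TEK of the endothelial list reached 10.4 FPKM in iCAFs+JNKi. In bulk RNA, fewer cells expressing a gene and less of its RNA per cell cannot be told apart.

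On GRCh37, the assembly also called hg19 to which the reads had been mapped, FGF2 runs on chromosome 4 from 123747837 to 123819391 on the plus strand, FGF5 on the same chromosome from 81187793 to 81257834 on the plus strand and FGF7 on chromosome 15 from 49715434 to 49780972 on the plus strand. PDGFRA runs on chromosome 4 from 55095447 to 55164412 on the plus strand and PDGFRB on chromosome 5 from 149493402 to 149535435 on the minus strand. These 5 genes held most of the differences described below, and JUN binds AP-1 sites, so their upstream sequences are shown. The pattern searched was TGANTCA, with any base at its centre, which equals its own reverse complement. The window ran from 250 bases before to 50 bases after the start of the canonical GENCODE transcript. A copy was found in 1 of the 10 members, PDGFRA, beginning 32 bases before the start, and in 5.41% of 19855 promoters of protein-coding genes of the same length. The PDGFRA copy is TGAATCA, with A at the centre. Whether JUN binds it was not tested, and the share of promoters with a narrower pattern was not computed. No match in this window says nothing of sites elsewhere. Sequences run 5′ to 3′ on the strand of the gene and end just before the first annotated base of the gene, and capitals mark the match to TGANTCA. In PDGFRA that end lies before the canonical start from which the 32 bases are counted.
FGF2 at chr4:123747736-123747836: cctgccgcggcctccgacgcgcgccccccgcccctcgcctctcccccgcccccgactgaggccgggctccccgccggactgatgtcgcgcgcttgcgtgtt
FGF5 at chr4:81187568-81187792: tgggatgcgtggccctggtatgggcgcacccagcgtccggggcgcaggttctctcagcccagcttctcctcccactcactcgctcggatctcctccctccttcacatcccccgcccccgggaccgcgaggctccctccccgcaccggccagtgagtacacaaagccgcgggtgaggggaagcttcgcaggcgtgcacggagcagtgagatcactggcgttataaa
FGF7 at chr15:49715189-49715433: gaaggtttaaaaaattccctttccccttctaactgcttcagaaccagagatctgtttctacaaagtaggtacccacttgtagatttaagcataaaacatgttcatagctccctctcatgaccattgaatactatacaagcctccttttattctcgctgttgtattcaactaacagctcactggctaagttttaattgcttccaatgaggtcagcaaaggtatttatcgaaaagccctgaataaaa
PDGFRA at chr4:55095210-55095446: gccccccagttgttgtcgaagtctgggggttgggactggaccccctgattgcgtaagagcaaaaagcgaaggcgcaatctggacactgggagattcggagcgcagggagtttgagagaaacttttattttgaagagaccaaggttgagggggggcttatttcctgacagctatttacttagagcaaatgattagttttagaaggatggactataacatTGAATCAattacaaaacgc
PDGFRB at chr5:149535436-149535658: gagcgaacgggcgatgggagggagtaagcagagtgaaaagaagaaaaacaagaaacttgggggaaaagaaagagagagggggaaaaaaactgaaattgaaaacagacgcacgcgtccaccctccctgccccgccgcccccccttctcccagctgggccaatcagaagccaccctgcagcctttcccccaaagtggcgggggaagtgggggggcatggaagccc

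**Figure D1:**
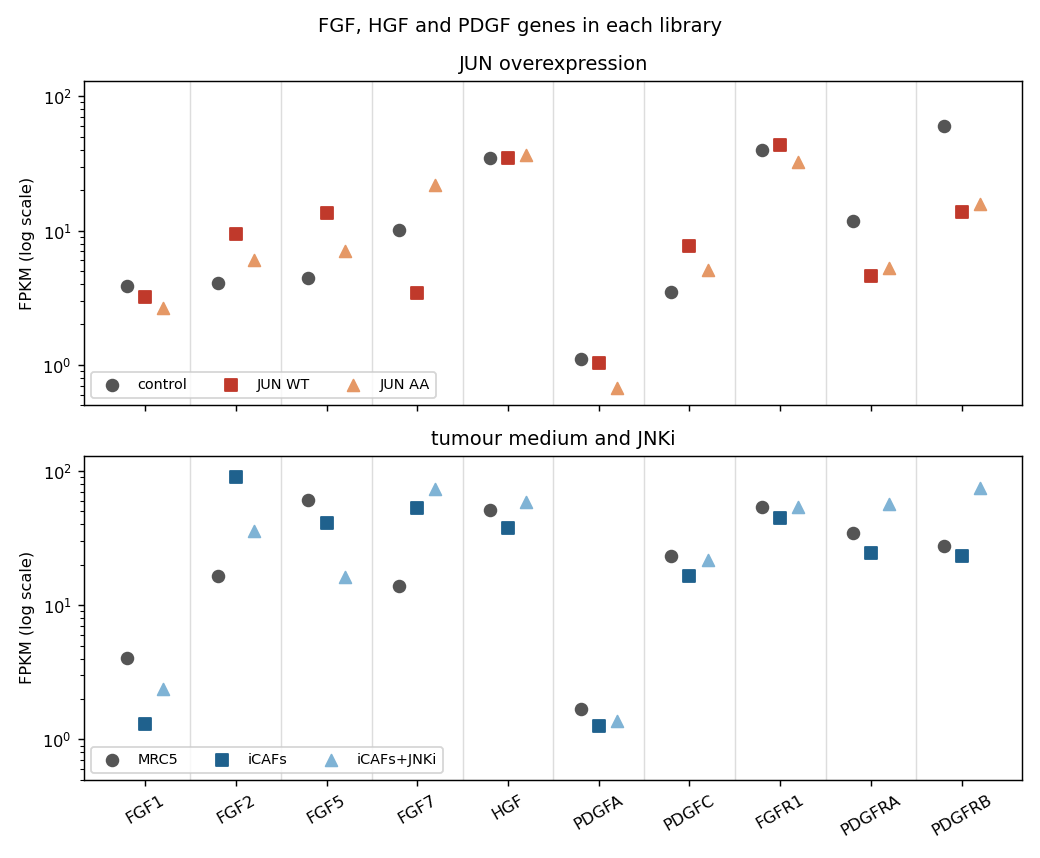
FPKM of the 10 genes in each library on a log scale, 1 point per library, with the JUN overexpression table above and the table of MRC5, iCAFs and iCAFs+JNKi below. FGF2 and FGF7 stand above MRC5 in iCAFs, and PDGFRB stands below the control in both JUN libraries and above MRC5 and iCAFs with JNKi.

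The FGF ligand with the most mRNA differed between MRC5 and iCAFs, and differed again with JNKi. Of the 10 members, 2 were at least 2-fold higher in iCAFs than in MRC5, FGF2 and FGF7, where 1.94% of all tested genes were, and 1 was at least 2-fold lower, FGF1, where 1.71% of all tested genes were. At least 2-fold means a difference of 1 on the scale of log2(FPKM + 1). The median log2 difference was -0.35 over the 10 members and -0.061 over all tested genes, and 8 members were below 0, as were 7000 of 11780 tested genes. With JNKi, 2 members were at least 2-fold higher than in iCAFs, PDGFRA and PDGFRB, against 2.25% of all genes, and 2 were at least 2-fold lower, FGF2 and FGF5, against 1.97%. The median was 0.44 over the members and -0.099 over all genes. Set against untreated MRC5, iCAFs+JNKi had 3 members at least 2-fold higher, FGF2, FGF7 and PDGFRB, against 3.28% of all genes, and 1 lower, FGF5, against 3.53%. These comparisons share libraries, so a high or low value in 1 library enters 2 of them.

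FGF2 was at 16.4 FPKM in MRC5, compared with 89.9 FPKM for iCAFs and 35.9 FPKM after JNKi. It was thus lowest in MRC5 and highest in iCAFs, where it led the order of all 10 members. The ratio was 5.47 for iCAFs against MRC5, with a log2 difference of 2.38 that 46 of 11780 tested genes exceeded. With JNKi, FGF2 was 2.50-fold lower than in iCAFs, a log2 difference of -1.30, and it was still 2.19 times its level in MRC5.

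FGF7, the keratinocyte growth factor read by epithelial FGFR2, was at 13.8 FPKM in untreated MRC5, while iCAFs had 52.5 FPKM and iCAFs+JNKi had 73.9 FPKM. Its iCAF level was 3.80 times that of MRC5, a log2 difference of 1.85 exceeded by 83 genes. Unlike FGF2, FGF7 was not lower with JNKi: the log2 difference from iCAFs was 0.48, under 2-fold. Against MRC5 it was 5.33-fold higher with JNKi, and 74 tested genes exceeded its log2 difference of 2.33.

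FGF5, a secreted FGF best known as a regulator of the hair cycle, had the highest FPKM of all members in MRC5. It was at 60.9 FPKM there, compared with 40.6 FPKM for iCAFs and 16.1 FPKM after JNKi, so each of the treated libraries was below MRC5. The iCAF level differed from MRC5 by -0.57 on the log2 scale, under 2-fold. With JNKi it was 2.52-fold lower than in iCAFs and 3.78-fold lower than in MRC5, and 53 of 11780 genes had a smaller log2 difference than its -1.85 from MRC5. FGF1 was at 4.04 FPKM in MRC5, compared with 1.30 FPKM for iCAFs and 2.36 FPKM after JNKi. At these low levels its difference of -1.13 between iCAFs and MRC5 corresponds to a 3.09-fold lower value, and with JNKi it was 1.81-fold higher than in iCAFs, under 2-fold on the log2(FPKM + 1) scale.

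**Figure D2:**
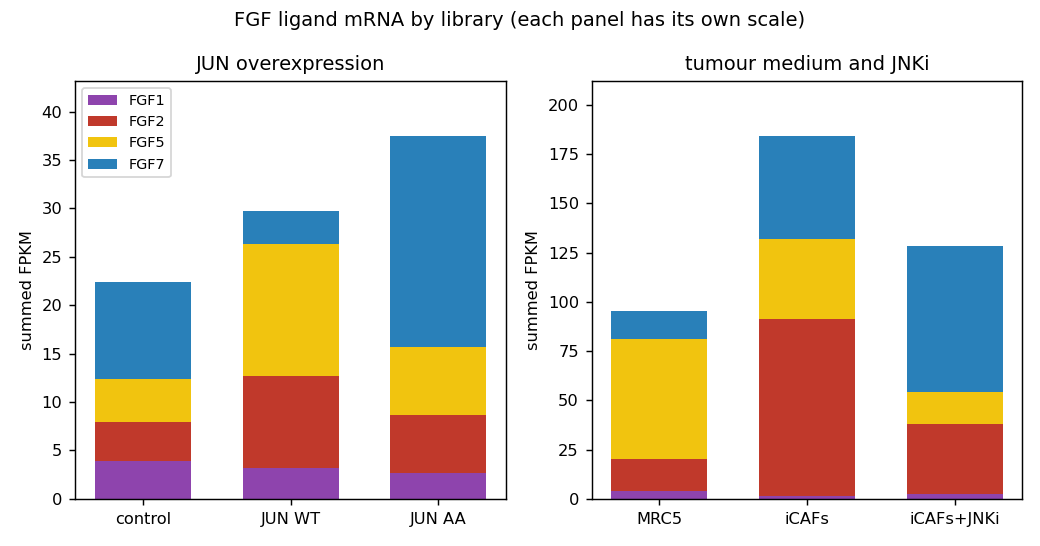
Stacked FPKM of FGF1, FGF2, FGF5 and FGF7 in each library, 1 bar per library, with a separate vertical scale for each table. FGF5 makes up 64.0% of the bar in MRC5, FGF2 makes up 48.8% in iCAFs and FGF7 makes up 57.6% in iCAFs+JNKi.

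Summed over these FGF ligands, mRNA was at 95.2 FPKM in untreated MRC5, while iCAFs had 184 FPKM and iCAFs+JNKi had 128 FPKM. A different ligand held the largest share in each library. FGF5 made up 64.0% of the sum in MRC5, and FGF2 made up 17.3% in MRC5 and 48.8% in iCAFs. With JNKi, FGF7 made up 57.6%, FGF2 28.0% and FGF5 12.6%. The remaining 18 FGF genes of the family all had a mean below 1 FPKM in both tables. The highest single value among them was 0.974 FPKM, of FGF13 in iCAFs+JNKi, and 11 of the 18 were listed at 0 in all libraries of the JNKi table.

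HGF, the ligand of MET, was at 50.9 FPKM in MRC5, compared with 37.4 FPKM for iCAFs and 58.7 FPKM after JNKi. No pair of these libraries differed by 2-fold, and the largest log2 difference was 0.64, with JNKi against iCAFs. PDGFC, a PDGF that must be cleaved before it binds its receptor, was at 23.3, 16.4 and 21.9 FPKM across MRC5, iCAFs and iCAFs+JNKi, again within 2-fold. PDGFA was the lowest of the 10 in all 3 libraries, at 1.70, 1.26 and 1.38 FPKM. The ratio of PDGFC to PDGFA lay between 13.1 and 15.9.

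Of the receptors, PDGFRA and PDGFRB were at least 2-fold higher with JNKi than in iCAFs and FGFR1 was not. PDGFRB was at 27.4 FPKM in untreated MRC5, while iCAFs had 23.1 FPKM and iCAFs+JNKi had 74.8 FPKM, where it had the highest level of the 10 genes. MRC5 and iCAFs lay close together and the library with JNKi stood apart. Its log2 difference with JNKi was 1.65 against iCAFs, which 83 tested genes exceeded, and 1.41 against MRC5. In FPKM it was 3.23-fold higher than in iCAFs. PDGFRA was at 34.3 FPKM in MRC5, compared with 24.6 FPKM for iCAFs and 56.6 FPKM after JNKi. It was 2.30-fold higher with JNKi than in iCAFs, with a log2 difference of 1.17, but under 2-fold above MRC5, with 0.71. The ratio of PDGFRB to PDGFRA was 0.799 in MRC5, compared with 0.940 for iCAFs and 1.32 after JNKi. FGFR1, the main FGF receptor of fibroblasts, was at 53.6, 44.7 and 54.2 FPKM, with no difference of 2-fold.

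Of 5 measured markers of pericytes and smooth muscle, 2 were at least 2-fold higher with JNKi than in iCAFs, ACTA2 and RGS5, and 0 were lower by as much, where 2.25% and 1.97% of all genes were. Summed over 7 genes, they reached 211 FPKM in MRC5, compared with 186 FPKM for iCAFs and 625 FPKM after JNKi, and 5 of the 7 were at 1 FPKM or more in each. ACTA2, encoding smooth muscle actin, was at 52.8 FPKM in iCAFs and 411 FPKM with JNKi, and RGS5, a pericyte marker, was at 5.81 FPKM and 68.9 FPKM, so most of the sum after JNKi was ACTA2. MCAM at 70.2 and 69.8 FPKM and CSPG4, with a log2 difference of -0.073, lay close together in iCAFs and iCAFs+JNKi. NOTCH3 was at 33.6 and 53.5 FPKM in these libraries, a log2 difference of 0.66, and at 1.07 with JNKi against MRC5. DES, a defining muscle marker, was listed at 0 in iCAFs and iCAFs+JNKi, and MYH11 of mature smooth muscle was at 0.295 FPKM with JNKi. Of the 10 fibroblast markers, 4 were at least 2-fold higher with JNKi than in iCAFs and 0 were lower by as much. These were COL1A1 at a log2 difference of 1.07, DCN at 1.93, LUM at 2.02 and COL3A1 at 2.65, which encode collagens and matrix proteoglycans, and the median over the list was 0.79 against -0.099 over all genes. The part of either marker list in the receptor values was not tested.

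**Figure D3:**
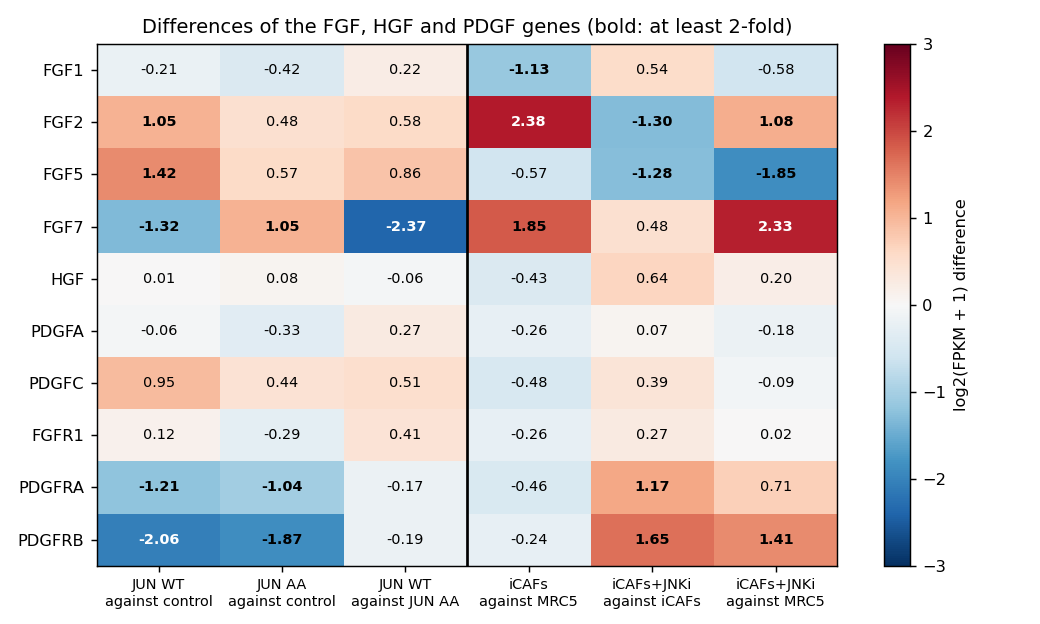
Differences of log2(FPKM + 1) for the 10 genes in 6 comparisons, red for higher and blue for lower in the first library named, with differences of at least 2-fold in bold. The line separates the tables. FGF2 is at 2.38 in iCAFs and -1.30 with JNKi, and PDGFRB is at -2.06 in JUN WT, -1.87 in JUN AA and 1.65 with JNKi.

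In the JUN table, PDGF receptor mRNA was lower and FGF2 and FGF5 mRNA higher with JUN WT. Of the 10 members, 2 were at least 2-fold higher in JUN WT than in the control, FGF2 and FGF5, against 6.92% of all tested genes, and 3 were at least 2-fold lower, FGF7, PDGFRA and PDGFRB, against 3.39%. In JUN AA, FGF7 was the 1 member at least 2-fold higher, against 5.29% of all genes, and 2 were at least 2-fold lower, PDGFRA and PDGFRB, against 3.77%. Directly between the JUN libraries, 0 members were at least 2-fold higher in JUN WT than in JUN AA, against 6.65% of all genes, and 1 was at least 2-fold lower, FGF7, against 5.61%. The median log2 difference of the members from the control was -0.024 for JUN WT and -0.11 for JUN AA, where all tested genes had medians of 0.15 and -0.015. Of the members, 9 passed the filter in this table, as PDGFA had a mean below 1 FPKM. Both JUN libraries were compared with the same control library.

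Those background shares depend on scaling. In JUN WT against the control, 67.1% of the genes at least 2-fold apart were higher, and 45.5% were after centring on the median gene and 49.8% with trends of GC content and length removed. In JUN AA the share was 58.4%, and 26.1% after FPKM were rescaled to the same sum, which moved the median gene from -0.015 to -0.29. In JUN WT against JUN AA it was 54.3%, with 82.9% after rescaling, 33.3% after centring and 43.3% with trends removed, and rescaling moved the median gene from 0.18 to 0.47. With JNKi against iCAFs the share was 53.3%, with 64.0% after centring and 66.5% with trends removed, and rescaling moved the median gene from -0.099 to 0.014. With JNKi against MRC5 it was 48.1%, with 59.3% after rescaling, 65.9% after centring and 68.6% with trends removed, and rescaling moved the median gene from -0.16 to -0.038.

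PDGFRB was at 60.4 FPKM with empty vector, while JUN WT had 13.8 FPKM and JUN AA had 15.8 FPKM. The control was the highest library, and both JUN libraries were far below it and close to each other. JUN WT was 4.39-fold lower than the control, a log2 difference of -2.06, and 30 of 10311 tested genes had a smaller value. JUN AA was 3.82-fold lower, with a log2 difference of -1.87 and 68 genes smaller. PDGFRA was at 11.8 FPKM in control cells, compared with 4.55 FPKM for JUN WT and 5.25 FPKM for JUN AA, with log2 differences of -1.21 and -1.04 from the control. Between JUN WT and JUN AA, PDGFRB differed by -0.19 and PDGFRA by -0.17, and both of these small differences turned positive once FPKM were rescaled to equal sums. FGFR1 was at 39.8, 43.3 and 32.3 FPKM across control, JUN WT and JUN AA, within 2-fold, and its sign against the control changed after centring in JUN WT and with trends removed in JUN AA.

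Of 5 measured markers of pericytes and smooth muscle, 3 were at least 2-fold lower in each JUN library than in the control, ACTA2, NOTCH3 and RGS5. Of all tested genes, 3.39% were lower by as much in JUN WT and 3.77% in JUN AA. The 7 listed markers summed to 1011 FPKM for the control, compared with 435 FPKM for JUN WT and 355 FPKM for JUN AA. Between 4 and 5 of the 7 markers reached 1 FPKM in each, 0 were listed at 0 and MYH11 did not exceed 0.183 FPKM. ACTA2 was at 874, 336 and 280 FPKM across control, JUN WT and JUN AA. NOTCH3, a receptor of perivascular cells, had 64.7, 18.3 and 29.7 FPKM across these libraries. ACTA2 made up most of the sum, and in JUN WT the other 2 measured markers were not below the control, with log2 differences of 0.66 for CSPG4 and 0.04 for MCAM. Of 9 measured fibroblast markers, 2 were at least 2-fold lower in JUN WT, LUM at -1.88 and COL1A1 at -1.23, against 3.39% of all genes. In JUN AA COL3A1 was lower at -1.15, against 3.77% of all genes, and LUM was higher at 1.34, against 5.29%. The part of either marker list in the receptor values was not tested.

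FGF7 separated the JUN libraries most. It was at 10.04 FPKM with empty vector, while JUN WT had 3.41 FPKM and JUN AA had 21.8 FPKM, so the libraries lay on opposite sides of the control. JUN WT was 2.95-fold lower than the control, with a log2 difference of -1.32. JUN AA was 2.17-fold higher, with a log2 difference of 1.05, which became 0.78 with rescaled FPKM and 0.75 with trends of GC content and transcript length removed. JUN WT was 6.40-fold lower than JUN AA, a log2 difference of -2.37 that was smaller in 9 of 10311 tested genes. The FPKM sum was largest in JUN AA, and with sums made equal this difference was at least 2-fold as well.

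FGF5 was at 4.44 FPKM in control cells, compared with 13.6 FPKM for JUN WT and 7.07 FPKM for JUN AA. JUN WT was 3.06-fold higher than the control, with a log2 difference of 1.42, and JUN AA was 1.59-fold higher, with 0.57. Between JUN WT and JUN AA the difference was 0.86, which rescaling took to 1.17 and trend removal to 1.02. FGF2 was at 4.04 FPKM with empty vector, while JUN WT had 9.46 FPKM and JUN AA had 6.02 FPKM. Its log2 difference of 1.05 in JUN WT lay just past the 2-fold limit and became 0.90 after centring and 0.99 with trends removed. In JUN AA the difference was 0.48. FGF1 was at 3.87, 3.22 and 2.63 FPKM across control, JUN WT and JUN AA, within 2-fold throughout. FGF5 made up 45.8% of the summed FGF ligand FPKM in JUN WT and 19.8% in the control, while FGF7 made up 44.8% in the control, compared with 11.5% for JUN WT and 58.1% for JUN AA.

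PDGFC lay just inside the limit. It was at 3.51 FPKM in control cells, compared with 7.69 FPKM for JUN WT and 5.11 FPKM for JUN AA, and its log2 difference of 0.95 in JUN WT became 1.11 with a pseudocount of 0.1 FPKM and 1.02 with rescaled FPKM. PDGFA was at 1.11, 1.03 and 0.675 FPKM across control, JUN WT and JUN AA and was again the lowest of the 10 genes. HGF had the smallest differences from the control in JUN AA and JUN WT together, at 34.4 FPKM with empty vector, while JUN WT had 34.7 FPKM and JUN AA had 36.4 FPKM, with log2 differences from the control of 0.012 and 0.076 whose sign changed after centring or rescaling.

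**Figure D4:**
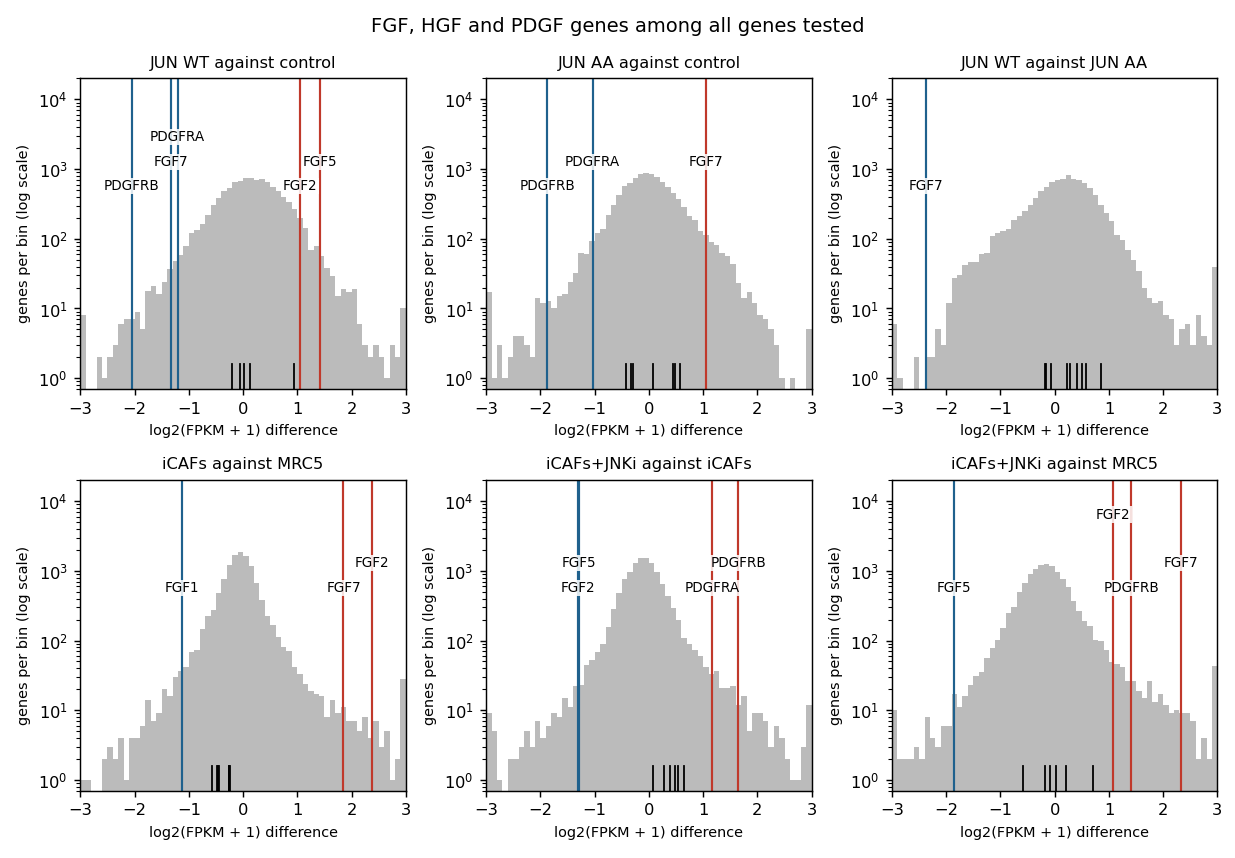
Histograms of the log2(FPKM + 1) difference of all tested genes in 6 comparisons, in bins of 0.1 with a log count axis, with genes beyond 3 in the outermost bins. Labelled lines are the members at least 2-fold higher (red) or lower (blue), and short black ticks the other members. FGF7 at -2.37 is the 1 labelled member between JUN WT and JUN AA.

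Of the 60 member differences, 20 were at least 2-fold, from 6 of the genes. Those 20 hold both directions. In single comparisons, 0 to 3 of the 10 members were at least 2-fold higher, where 1.94% to 6.92% of all tested genes were. Between 1 and 3 members were lower by as much, where 1.71% to 5.61% of all tested genes were. The share of all genes in either direction is larger than these and was not computed. The 60 are not independent, as comparisons within a table share libraries. On the log2(FPKM + 1) scale HGF, PDGFA, PDGFC and FGFR1 reached 2-fold in none of the 6 comparisons, a share not computed over all genes. In FPKM, PDGFC in JUN WT was 2.19 times the control. The mRNA of HGF and of FGFR1 stayed within 2-fold in each table while that of FGF1, FGF2, FGF5, FGF7, PDGFRA and PDGFRB did not. In any single comparison most tested genes were also under 2-fold. Of the members, 4 lie on chromosome 4 (FGF2, FGF5, PDGFC and PDGFRA), 2 on chromosome 5 (FGF1 and PDGFRB), 2 on chromosome 7 (HGF and PDGFA), 1 on chromosome 8 (FGFR1) and 1 on chromosome 15 (FGF7). Transcript GC content ran from 33.1% in FGF7 to 57.6% in PDGFA, with PDGFRB at 57.5%, FGF2 at 36.8% and FGF5 at 36.6%. Of the 20 differences, 18 were 2-fold or more under each of the 4 other settings computed, with FGF2 in JUN WT and FGF7 in JUN AA as the exceptions.

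Reads shared with other genes bear on some of these values. On the GENCODE annotation, FGF2 shares 804 of its 6801 exon bases with NUDT6 on the opposite strand, and whether the counting used strand is not given in the sources used here. NUDT6 was at 1.02, 0.904 and 1.85 FPKM across MRC5, iCAFs and iCAFs+JNKi and at 1.41, 1.68 and 2.90 FPKM across control, JUN WT and JUN AA, below FGF2 in every library. FGF7 has near copies, KGFLP1 and KGFLP2, and these did not exceed 0.933 FPKM. FGF5 shares 136 exon bases with CFAP299, listed under its older name C4orf22 at no more than 1.16 FPKM. PDGFRA shares 1533 of 9547 exon bases with another protein-coding gene model on the same strand. Its neighbour FIP1L1 was at 6.89, 8.32 and 6.31 FPKM across control, JUN WT and JUN AA, above PDGFRA in JUN WT and JUN AA. Across MRC5, iCAFs and iCAFs+JNKi it was at 19.6, 18.8 and 16.1 FPKM, below PDGFRA in each. Whether shared reads enter the PDGFRA values was not tested. Of the pathway genes named below, PLAU shares 31.0% of its exon bases with an opposite-strand gene, IER3 32.6% and DUSP6 28.6%.

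MET, the HGF receptor, was at 8.13 FPKM in untreated MRC5, while iCAFs had 4.53 FPKM and iCAFs+JNKi had 3.76 FPKM, and at 1.48, 3.71 and 2.15 FPKM across control, JUN WT and JUN AA. No pair differed by 2-fold on the log2(FPKM + 1) scale. HGF exceeded MET in every library, with ratios from 6.26 in MRC5 to 23.3 in the control. MET was 1 of 6 genes in the list of HGF receptor relatives and activator inhibitors, of which 2 passed the filter in the JNKi table and 1 in the JUN table. FGFRL1, a receptor without a kinase domain, FLRT2 and FLRT3 passed the filter in both tables and FGFR4 in the JUN table, and 0 of them reached 2-fold in any of the 6 comparisons. FGFR2, the epithelial receptor of FGF7, was listed at 0 in all libraries. In the PDGF family list, PDGFRL passed the filter and stayed within 2-fold.

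Of 6 proteases that activate HGF or PDGF precursors, 3 passed the filter in each table, PLAU, urokinase, PLAT, tissue plasminogen activator, and FURIN. PLAU was at 339 FPKM in MRC5, compared with 1563 FPKM for iCAFs and 815 FPKM after JNKi, and PLAT was at 64.5, 175 and 88.1 FPKM. Their log2 differences in iCAFs against MRC5 were 2.20 and 1.43, and with JNKi both were lower than in iCAFs by just under 2-fold, at -0.94 and -0.99. Against MRC5, PLAU with JNKi was still at least 2-fold higher, at 1.26, as were 3.28% of all tested genes. PLAT was under 2-fold there, at 0.44. In the JUN table PLAU was at 350 FPKM in control cells, compared with 150 FPKM for JUN WT and 125 FPKM for JUN AA, with log2 differences of -1.22 and -1.47. FURIN, which cleaves PDGFA, was within 2-fold in all comparisons.

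Of 16 receptor adaptors and transducers, such as FRS2, GRB2, SOS1 and PTPN11, 14 passed the filter in the JUN table and 16 in the JNKi table. Only CBLB, a ubiquitin ligase that restrains receptor signals, reached 2-fold, at 1.01 with JNKi against MRC5. In that comparison 3.28% of all tested genes were at least 2-fold higher. The medians of this list lay between -0.20 and 0.099, and those of all tested genes between -0.16 and 0.18.

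Of genes induced through ERK by growth factors, 4 of 15 measured exceeded the control by 2-fold or more in JUN WT, where 6.92% of all genes did, and 0 were lower by as much, where 3.39% were. Those higher were SPRY2, a feedback inhibitor, at 1.98, CCND1, encoding cyclin D1, at 1.04, the ERK phosphatase DUSP5 at 1.03 and EGR1, an immediate early transcription factor, at 1.00, the last at the limit itself. The median of the 15 genes, 0.11, was below the 0.15 of all genes. SPRY2 was at 4.05 FPKM with empty vector, while JUN WT had 18.9 FPKM and JUN AA had 6.59 FPKM. In JUN AA 0 were at least 2-fold higher, against 5.29% of all genes, and 2 lower, against 3.77%, EGR1 at -1.11 and FOSL1, an AP-1 subunit, at -1.09, and the median was -0.25 against -0.015 over all genes. Directly between JUN WT and JUN AA, 6 of 15 were at least 2-fold higher, against 6.65% of all genes, and 0 lower, against 5.61%, with EGR1 at 2.11 and the ERK phosphatase DUSP6 at 1.27, and the median was 0.65 against 0.18 over all genes. In iCAFs against MRC5, 2 of 16 were at least 2-fold higher, IER3 at 2.49 and PHLDA1 at 1.17, against 1.94% of all genes, and 1 lower, DUSP5 at -1.15, against 1.71%, with a median of 0.078 against -0.061. With JNKi against iCAFs, 1 of 16 was higher, SPRY1 at 1.12, against 2.25% of all genes, and 4 were lower, against 1.97%, IER3 at -2.06, SPRY2 at -1.67, DUSP5 at -1.20 and FOSL1 at -1.02. The median of the list was then -0.42 against -0.099 over all genes. With JNKi against MRC5, 1 was higher, against 3.28% of all genes, and 3 were lower, against 3.53%, with DUSP5 at -2.35 and SPRY2 at -2.07. The median was then 0.072, above the -0.16 of all genes.

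**Figure D5:**
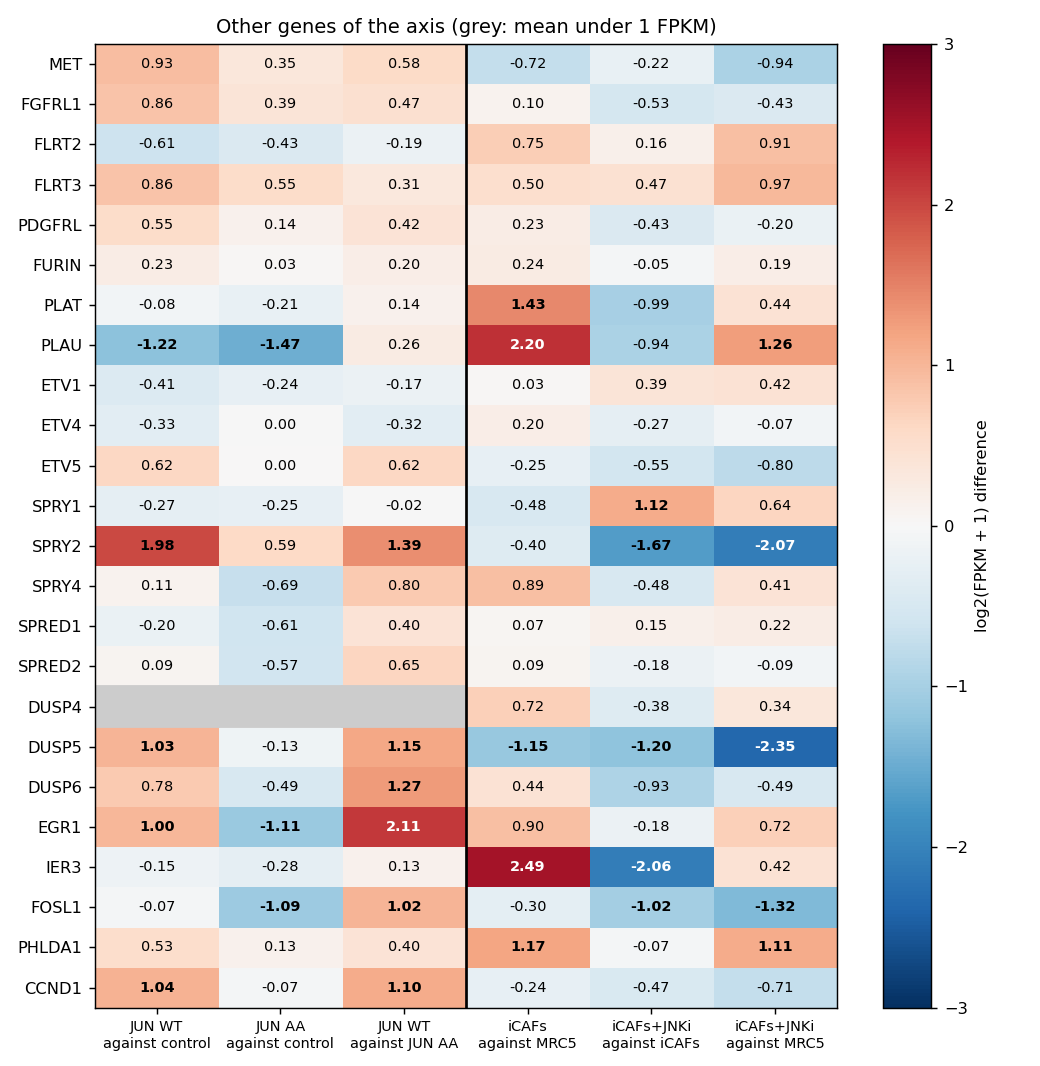
Differences of log2(FPKM + 1) for other genes of the axis in 6 comparisons, red for higher and blue for lower in the first library named, bold at 2-fold or more and grey where the mean was below 1 FPKM. SPRY2 is at 1.98 in JUN WT and -1.67 with JNKi against iCAFs, and PLAU is at 2.20 in iCAFs.

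For the 3 members with the widest range, the genes with the most similar pattern were sought among the 10020 genes past the filter of both tables. Likeness was the Euclidean distance over 4 log2 differences, those of JUN WT and JUN AA against the control, iCAFs against MRC5 and iCAFs+JNKi against iCAFs. For PDGFRB these were SLC40A1, the iron exporter ferroportin, at a distance of 0.61, COL5A3, a collagen chain, at 0.67 and WFDC1 at 0.68. For FGF2 they included PLOD2, a collagen lysyl hydroxylase, at 0.33 and SLC39A14, a metal transporter, at 0.59. PLOD2 differed by 2.13 in iCAFs and by -1.18 with JNKi, beside 2.38 and -1.30 for FGF2. FGF7 had no gene as close: the nearest were the metallothioneins MT1E at 1.23 and MT1X at 1.24, which belong to a family of similar genes, and CCDC184 at 1.38.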

How the data were processed

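Per the labels and the paper's methods, total RNA from 6 MRC5 cultures was sequenced, reads were aligned to hg19 by HISAT2 2.1.0, and the authors deposited FPKM per gene from StringTie 2.1.1, 1 library a condition. The annotation, the use of strand and the read number are not given in the sources used here. Each table has 25370 rows, and of rows with the same symbol the one with the highest mean was kept. All columns were matched to a sample.

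Differences of log2(FPKM + 1) were computed within each table in Python 3.11.15 with numpy 2.4.6 and pandas 2.3.3. A pseudocount of 1 understates the change of low genes. Counts over all genes and lists used a mean of at least 1 FPKM, and counts of members used all 10. FPKM are not counts and there are no replicates, so no test was made. The calculation was tried on simulated libraries with planted changes beyond the 2-fold limit and little added noise. This checks the calculation only and says nothing of the error of a real FPKM value. The members, gene lists and rules were chosen with earlier results of these data known. Text names were all members, JUN, MET, for each of 7 pathway lists and comparisons the 2 highest and 2 lowest genes at least 2-fold apart, and the 3 genes nearest in pattern to each of the 3 members of widest range. 1 gene that this rule selects is not reported here. Further names were chosen after their values were seen. Positions, exon overlaps, GC content and length came from GRCh37 with GENCODE (lifted from a later release), and the promoter sequences shown were read from that genome. GC content and length were found for 91.1% of the tested genes of the JUN table and 90.4% of the JNKi table, and for all members. The alternatives were 0.1 FPKM as pseudocount, equal library sums of 1000000, centring on the median gene, removal of median trends in 20 bins of GC content and then length, a minimum of 5 FPKM and no minimum. Figures were drawn with matplotlib 3.10.9.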

Additional observations from a re-analysis of the deposited data

How the results depend on the processing

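With 1 library a condition no replicate could be left out, and neither depth nor the error of a single FPKM value is known. Of 240 member values under an alternative, 205 moved by at most 0.25 on the log2 scale, a limit chosen here, and 35 moved further. All 20 member differences of at least 2-fold kept their sign under the 4 alternatives computed for them. The members at least 2-fold higher in JUN WT against control numbered 1 in place of 2 after centring and with trends removed. Those higher in JUN AA numbered 0 in place of 1 with FPKM rescaled and with trends removed, and those higher in JUN WT against JUN AA 1 in place of 0 under the same settings. Rescaling took the members' median to -0.41 in JUN AA against control and to 0.52 in JUN WT against JUN AA. At a minimum of 5 FPKM, 0 members were lower in iCAFs, as FGF1 was left out. The cause of each change was not tested.

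Over all genes, counts that changed by more than 1.5 times were as follows. Higher in JUN WT were 714 genes, with 1229 at a pseudocount of 0.1, 436 after centring, 326 with trends removed and 458 at 5 FPKM, and 350 were lower, with 527 at a pseudocount of 0.1. Higher in JUN AA were 545, with 338 rescaled and 279 with trends removed, and 389 were lower, with 629 at a pseudocount of 0.1 and 957 rescaled. Higher in JUN WT against JUN AA were 686, with 1151 at a pseudocount of 0.1, 1770 rescaled, 411 after centring, 351 with trends removed and 438 at 5 FPKM, and 578 were lower, with 364 rescaled. Lower in iCAFs were 202, with 356 at a pseudocount of 0.1 and 128 at 5 FPKM. With JNKi against iCAFs, 265 were higher, with 411 rescaled and 169 at 5 FPKM, and 232 were lower, with 386 at a pseudocount of 0.1 and 147 both with trends removed and at 5 FPKM. With JNKi against MRC5, 386 were higher, with 581 rescaled, and 416 were lower, with 706 at a pseudocount of 0.1, 267 after centring, 214 with trends removed and 263 at 5 FPKM.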

Other observations

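Among receptor tyrosine kinases outside the axis, TEK, the angiopoietin receptor of endothelium, was at 2.52 FPKM in MRC5, compared with 3.77 FPKM for iCAFs and 10.4 FPKM after JNKi, while the endothelial genes CDH5 and PECAM1 did not exceed 0.0251 FPKM. TEK was named after its values were seen. In the JUN table TEK did not exceed 0.329 FPKM. PDGFB was at 0.139, 0.854 and 1.35 FPKM across MRC5, iCAFs and iCAFs+JNKi and was listed at 0 in all libraries of the JUN table, and FGFR4 had 0.265, 0.428 and 1.35 FPKM across MRC5, iCAFs and iCAFs+JNKi. Both had a mean below 1 FPKM in the JNKi table and so did not pass the filter. With JNKi against MRC5 the log2 difference was 1.04 for PDGFB and 0.89 for FGFR4. At values this low and an unknown read number, these are not read as differences. PDGFB and FGFR4 were named after their values were seen.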
